A study of Capra hircus with 72 samples.

Results

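The genes described here carry bicarbonate or exchange sodium for protons across cell and organelle membranes. They were chosen by symbol: SLC4A2, SLC4A3, SLC4A4, SLC4A7, SLC4A8 and SLC4A10 of the bicarbonate transporter family, and SLC9A7 and SLC9A9 of the sodium-proton exchanger family. Of these 8 symbols 7 had a row among the 21343 genes of the deposited table, and SLC4A2 was not analysed here. All 7 passed the filter on low counts in each fit. RNA was sequenced from brain tissue of female goats (Capra hircus) in 4 regions: the medial prefrontal cortex (mPFC), the retrotrapezoid nucleus (RTN), the ventral respiratory column (VRC) and the solitary tract nucleus (NTS). Over 14 days the animals breathed room air, air with 6% CO2 throughout (mild chronic hypercapnia), or air with 6% CO2 for 7 days followed by 8% CO2 for another 7 (moderate chronic hypercapnia). Each region and condition had 6 libraries, 72 in all, and the series text gives 6 animals per condition. The labels give no strain, age or genotype, and tissue pieces rather than sorted cells were sequenced, so fewer cells of a type and less RNA per cell cannot be told apart.

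Carbon dioxide dissolves to form protons and bicarbonate, and cells hold their pH by moving both across their membranes. Sodium-coupled bicarbonate transporters bring bicarbonate in and so extrude acid, chloride-bicarbonate exchangers let bicarbonate out and so load acid, and sodium-proton exchangers trade sodium against protons at the surface or in endosomes and the Golgi. The RTN, VRC and NTS lie in the brainstem and take part in breathing and in its response to carbon dioxide, and the mPFC is a forebrain region outside that network.

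The median library held 19.3 M counts, and the range was 12.8 M to 31.9 M. The members had 54 to 7075 counts in a library, so none sat near zero. In every region and condition genes of all 9 cell type marker lists were detected, and the oligodendrocyte and myelin list separated the regions most plainly: its summed level averaged 4008 CPM (counts scaled to library size) in mPFC, 26795 in RTN, 44902 in VRC and 16846 in NTS under room air. One NTS room air library, replicate 1, stood apart with a myelin sum of 34724 CPM. Log2 values of members from the main fits that it moves by over 1.5 times are also given without it. Values of the marker lists include it.

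Per length of the gene model, SLC4A3 was the most abundant of the 22 SLC4 and SLC9 genes with a row, which leave out SLC4A2. SLC4A3 encodes AE3, a chloride-bicarbonate exchanger of neurons and heart muscle, and its deposited RPKM (reads scaled to gene length and library size) averaged 52.7 over the 24 room air libraries, first of 22 family genes. Among the members SLC4A10 followed at 22.3 RPKM and SLC4A4 at 10.1 RPKM. The other members had lower levels, with 4.39 RPKM for SLC9A7, 4.27 RPKM for SLC4A7, 4.04 RPKM for SLC4A8 and 2.10 RPKM for SLC9A9. The order depends on the length of each gene model, which was a multiple of 3 bases for 6 of the 7 members and for 65.2% of all genes, so untranslated ends may be missing from some.

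**Figure D1:**
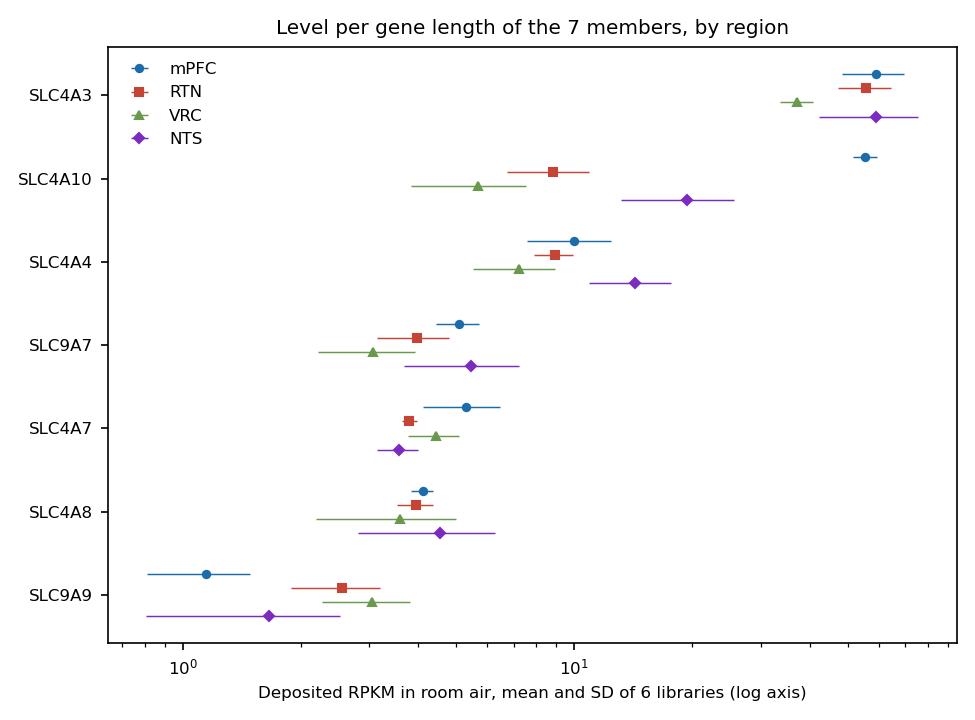
Deposited RPKM (log axis) of the 7 members in room air, with 1 marker per region for the mean of 6 libraries and bars for the SD. SLC4A3 lies at 37.1 to 59.0 RPKM in all 4 regions, while SLC4A10 spreads from 5.68 RPKM in VRC to 55.4 RPKM in mPFC.

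Among the SLC4 genes with a row, SLC4A3 and SLC4A10 made up nearly equal parts in mPFC, and SLC4A3 made up most in the brainstem regions. The summed RPKM leaves out SLC4A2, which was not analysed. In mPFC SLC4A3 held 43.6% ± 5.42 of the summed SLC4 RPKM and SLC4A10 held 41.5% ± 4.68 (SD, n = 6 each). In RTN the same genes held 67.7% ± 3.14 and 10.7% ± 2.03, in VRC 63.3% ± 4.98 and 9.54% ± 2.40, and in NTS 57.7% ± 4.36 and 18.6% ± 2.89. SLC4A4 held 7.39% ± 1.56 in mPFC and 14.6% ± 3.89 in NTS. These shares are a description of levels, and the tests of region follow on the counts.

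Region differences in room air were tested with edgeR's quasi-likelihood F-test on the 24 room air libraries, with Benjamini-Hochberg adjustment over 15700 genes. The members were called at adjusted p under 0.05 in 21 of 42 tests, where 38.8% of all gene tests over the 6 region pairs were called. For mPFC over RTN 3 of 7 members were called, against 54.8% of all genes. For mPFC over VRC 4 of 7 were called, against 60.3%, and for mPFC over NTS 3 of 7, against 48.3%. Within the brainstem 2 of 7 were called for RTN over VRC, against 14.7%, 3 of 7 for RTN over NTS, against 21.6%, and 6 of 7 for VRC over NTS, against 33%. In the 3 pairs with mPFC the members were called no more often than genes in general, so those counts are no result about the members. How many of all genes had regions whose libraries did not overlap was not counted. Where members are said below to separate regions, this only describes their libraries.

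SLC4A10 differed in all 6 pairs of regions. It encodes a sodium-coupled bicarbonate transporter (NBCn2, also called NCBE) of neurons and choroid plexus. In mPFC its lowest, median and highest libraries had 199, 216 and 235 CPM. In RTN they had 26.5, 36.4 and 47.5 CPM, in VRC 14.7, 22.5 and 35.9 CPM, and in NTS 27.1, 81.7 and 94.6 CPM. Every mPFC library thus lay above every brainstem library, and NTS lay above RTN and VRC except for its replicate 1. The level in mPFC was 9.05-fold that in VRC (log2 3.18 ± 0.23, SE; adjusted p = 3.38e-11), 5.73-fold that in RTN (2.52 ± 0.23; adjusted p = 1.40e-09) and 2.89-fold that in NTS (1.53 ± 0.22; adjusted p = 2.95e-06), all by edgeR. Among all genes 2.22% were at least as high in mPFC over VRC. RTN lay below NTS by a log2 of -0.99 ± 0.22 (edgeR adjusted p = 0.00187), and VRC below NTS by -1.64 ± 0.22 (adjusted p = 7.41e-06). Without NTS replicate 1 the SLC4A10 difference of mPFC over NTS was 1.35 and that of RTN over NTS -1.17, both still called. The neuron list did not follow this order, with 4 of 8 genes higher and 4 lower in mPFC than in RTN, and the choroid plexus and ependyma list had a mean sum of 40.7 CPM in mPFC, 41.6 CPM in RTN, 18.8 CPM in VRC and 97.7 CPM in NTS, where the highest library had 409 CPM.

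The last pair for SLC4A10, RTN over VRC, was the least certain. Its mean was 36.6 ± 8.94 CPM in RTN and 23.5 ± 7.51 CPM in VRC, a log2 difference of 0.66 ± 0.22 (edgeR adjusted p = 0.0439), and the 2 groups overlapped. The call ended without any 1 of 14 of the 24 libraries: mPFC replicates 5 and 6, NTS replicates 2, 3 and 4, RTN replicates 3, 4, 5 and 6, and VRC replicates 1, 2, 3, 4 and 5. Over those 14 fits the SLC4A10 log2 value was 0.56 to 0.71 and its edgeR adjusted p 0.0501 to 0.113.

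**Figure D2:**
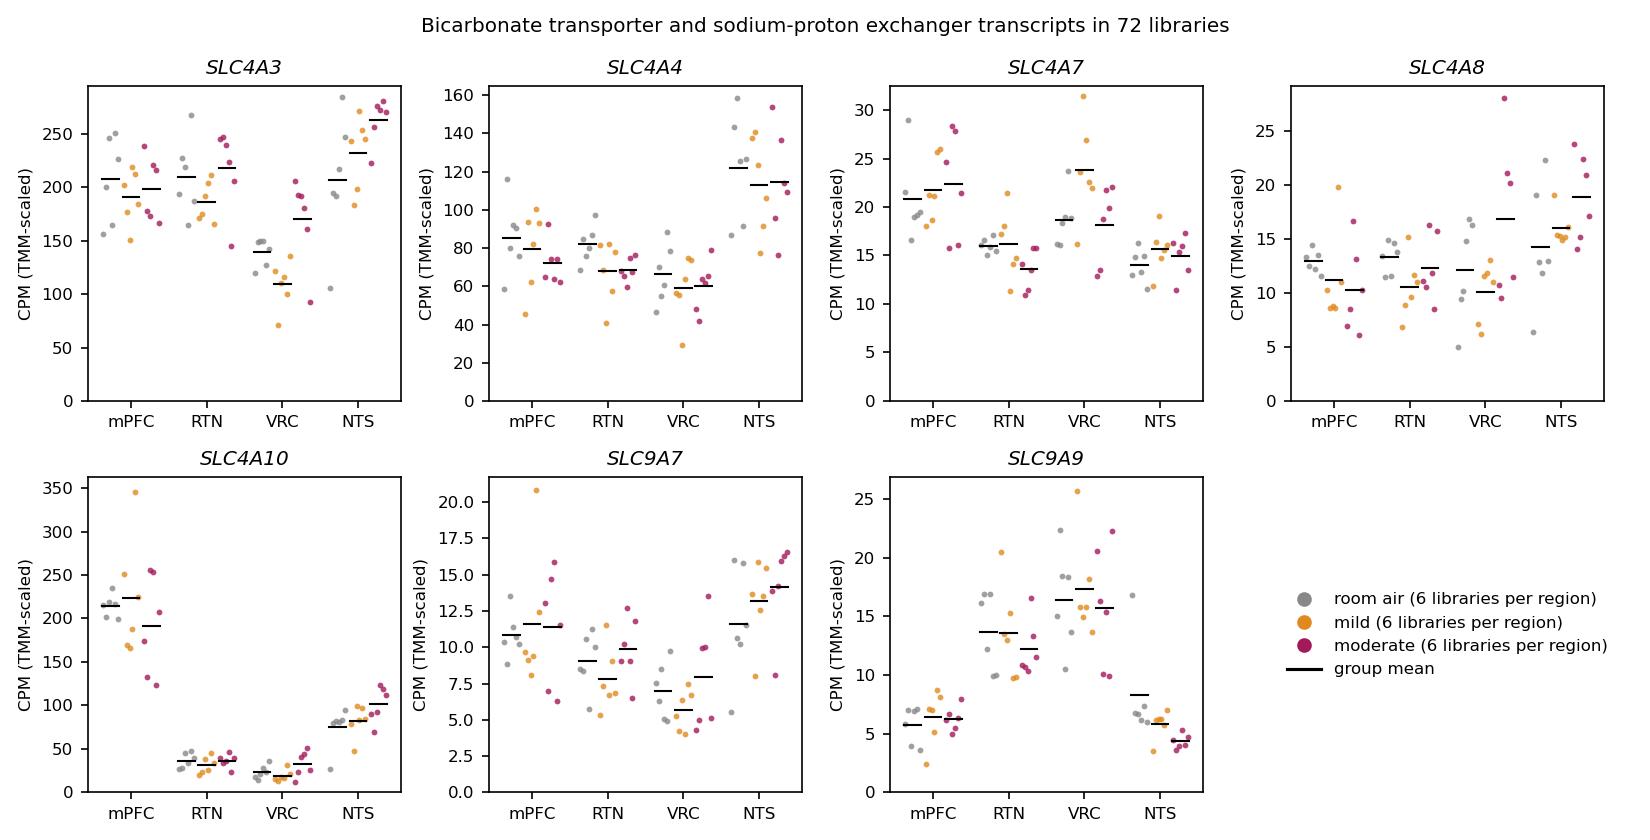
Level of each member (CPM, linear axis from 0) in the 72 libraries, by region and, within each region, room air, mild and moderate hypercapnia. Points are libraries, 6 per group, and lines are group means. SLC4A10 in mPFC and SLC9A9 in RTN and VRC stand out by region, while the conditions overlap in nearly all panels.

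SLC9A9, which encodes NHE9 of recycling endosomes, ran the other way and was highest in VRC and RTN. Its lowest, median and highest room air libraries had 3.63, 6.40 and 7.14 CPM in mPFC, 9.93, 14.2 and 16.9 CPM in RTN, 10.5, 16.7 and 22.4 CPM in VRC, and 6.02, 6.73 and 16.8 CPM in NTS. No mPFC library reached the lowest RTN or VRC library. mPFC was lower than VRC by a log2 of -1.52 ± 0.26 (edgeR adjusted p = 2.14e-05) and lower than RTN by -1.28 ± 0.26 (adjusted p = 0.000187). VRC over NTS was 1.00 ± 0.26 (adjusted p = 0.00420) and RTN over NTS 0.76 ± 0.26 (adjusted p = 0.0354), again by edgeR. RTN over VRC was not called (-0.24, 95% interval -0.76 to 0.28), nor was mPFC over NTS (-0.53, interval -1.06 to 0.01). The NTS replicate 1 library was the one at 16.8 CPM, and without it SLC9A9 gave 1.36 for VRC over NTS, 1.08 for RTN over NTS and -0.20 for mPFC over NTS. For RTN over NTS the call ended without any 1 of NTS replicates 2, 3, 4, 5 and 6 or RTN replicates 1, 2 and 4, with an adjusted p of 0.0643 to 0.0842. The summed myelin list had the region order of SLC9A9, and so had 2 other lists. The endothelium sum averaged 378 CPM in mPFC, 500 in RTN, 704 in VRC and 478 in NTS. The sum of ribosomal protein genes, a list added after seeing the data, averaged 3266, 3851, 4317 and 3671 CPM in the same regions. In mPFC 9 of 9 tested myelin genes were lower than in VRC, and 9 of 9 lower than in RTN. They were also 9 of 9 lower in mPFC than in NTS, where SLC9A9 was not called. For VRC over NTS 9 of 9 were higher, but for RTN over NTS, where SLC9A9 was called, only 2 of 9 were. For RTN over VRC 1 of 9 was lower. The part of the myelin, endothelium and ribosomal protein lists in the SLC9A9 result was not tested.

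SLC4A3 was lowest in VRC. The lowest, median and highest room air libraries had 156, 214 and 250.4 CPM in mPFC, 165, 207 and 267 CPM in RTN, 119.7, 146 and 150.1 CPM in VRC, and 105, 206 and 284 CPM in NTS. The VRC libraries lay below every mPFC and every RTN library. By edgeR, SLC4A3 was higher in mPFC than in VRC by a log2 of 0.56 ± 0.16 (adjusted p = 0.00516), higher in RTN than in VRC by 0.61 ± 0.16 (adjusted p = 0.0136), and lower in VRC than in NTS by -0.54 ± 0.16 (adjusted p = 0.0127). The means in mPFC, RTN and NTS were 207, 210.0 and 207 CPM, and no pair among these 3 regions was called.

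SLC4A4 was highest in NTS. It encodes NBCe1, the electrogenic sodium-bicarbonate cotransporter, which in brain is best known from astrocytes. Its mean in room air was 85.5 ± 19.3 CPM in mPFC, 82.1 ± 9.94 CPM in RTN, 66.5 ± 15.4 CPM in VRC and 122 ± 28.3 CPM in NTS (SD, n = 6 each). All 3 other regions were below NTS, with edgeR log2 differences of -0.51 ± 0.16 for mPFC (adjusted p = 0.0117), -0.53 ± 0.16 for RTN (adjusted p = 0.0193) and -0.86 ± 0.16 for VRC (adjusted p = 0.000269). The groups overlapped in each pair. Of 10 astrocyte genes 7 were lower and 1 higher in mPFC than in NTS, and 5 were lower and 2 higher in VRC than in NTS. In RTN 1 was lower and 2 were higher than in NTS. The part of the astrocyte genes in the SLC4A4 result was not tested. For RTN over NTS the SLC4A4 call ended without NTS replicate 3 (log2 -0.45, adjusted p = 0.0620). The pair of mPFC over VRC missed the threshold at 0.35 ± 0.16 (adjusted p = 0.0630), and SLC4A4 passed it there without mPFC replicate 1 (0.0205), VRC replicate 5 (0.0221) or VRC replicate 6 (0.0467). Blocking on the replicate number, SLC4A4 passed it too (0.35, edgeR adjusted p = 0.0241).

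SLC4A7 was highest in mPFC and lowest in NTS. It encodes NBCn1, an electroneutral sodium-bicarbonate cotransporter that extrudes acid. Its room air means were 20.8 ± 4.29 CPM in mPFC, 16.0 ± 0.76 CPM in RTN, 18.7 ± 2.78 CPM in VRC and 14.0 ± 1.71 CPM in NTS. Every mPFC library exceeded every NTS library, with a log2 difference of 0.58 ± 0.12 (edgeR adjusted p = 0.000311). VRC exceeded NTS by 0.44 ± 0.12 (adjusted p = 0.00697) and mPFC exceeded RTN by 0.34 ± 0.12 (edgeR adjusted p = 0.0177). Without mPFC replicate 2 the last SLC4A7 difference was 0.22 and was not called (adjusted p = 0.0792).

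SLC9A7, which encodes NHE7 of the trans-Golgi network, was called in both pairs that set VRC against mPFC or NTS. Its means were 10.8 ± 1.56 CPM in mPFC, 9.07 ± 1.98 CPM in RTN, 7.01 ± 1.94 CPM in VRC and 11.6 ± 3.91 CPM in NTS. VRC lay below NTS by a log2 of -0.71 ± 0.21 (edgeR adjusted p = 0.0119) and mPFC above VRC by 0.62 ± 0.21 (adjusted p = 0.0151). SLC4A8, which encodes the sodium-driven chloride-bicarbonate exchanger NDCBE of presynaptic endings, was called in none of the 6 pairs. Its means ran from 12.1 ± 4.67 CPM in VRC to 14.3 ± 5.65 CPM in NTS, and the largest difference was a log2 of -0.22 for VRC over NTS with a 95% interval of -0.70 to 0.27. Without NTS replicate 1 that SLC4A8 value was -0.34 and was not called either (edgeR adjusted p = 0.208). Differences inside that interval cannot be told from none with these libraries.

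The region pattern was looked at again in the libraries of the animals under hypercapnia, a choice made after seeing the data. All 21 called differences had the same direction in the 24 mild libraries and in the 24 moderate libraries. Of the 21, 19 were also called in the mild and 16 in the moderate libraries. In all, 23 of 42 member tests were called in the mild libraries, against 40.5% of all gene tests over the 6 pairs, and 20 of 42 in the moderate libraries, against 36%. For SLC4A10 mPFC exceeded VRC by a log2 of 3.53 ± 0.25 in the mild and 2.48 ± 0.27 in the moderate libraries. For SLC9A9 the same pair gave -1.45 ± 0.25 in the mild and -1.39 ± 0.19 in the moderate libraries. For RTN over VRC no member was called in the moderate libraries, where SLC4A3 had a log2 of 0.32 and SLC4A10 of 0.11. Under moderate hypercapnia 3 differences that were not called in room air were called with the opposite sign. SLC4A8 in mPFC over VRC had -0.77 (edgeR adjusted p = 0.0158), against 0.09 ± 0.24 in room air. SLC4A3 in mPFC over NTS had -0.42 (edgeR adjusted p = 0.0336), against 0.01 ± 0.16. SLC9A9 in mPFC over NTS had 0.50 (edgeR adjusted p = 0.0411), against -0.53 ± 0.26. The room air values of SLC4A8 and SLC4A3 were smaller than their SE, so they set no direction.

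The series compared each level of hypercapnia with room air in each region, and the 2 levels of hypercapnia are compared here as well. One edgeR fit per region held its 18 libraries. None of the 84 member tests reached an adjusted p under 0.05, and the lowest adjusted p was 0.134. DESeq2 called 1 of 84 (SLC4A3 in VRC, moderate against mild), in a contrast where it called 253 of all genes. Limma with quality weights called none of 84. At an unadjusted p under 0.05 there were 8 of 84 by edgeR, against 7.02% of all gene tests over the 12 contrasts, 9 by DESeq2, against 7.74%, and 21 by limma, against 11%. By edgeR the background over all genes was 0% called in 11 of the 12 contrasts and 0.00649% in NTS for moderate hypercapnia against room air. The estimates for members ran from a log2 of -0.94 to 0.75, and the 95% intervals in the plot of fold changes show what sizes the data leave possible.

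**Figure D3:**
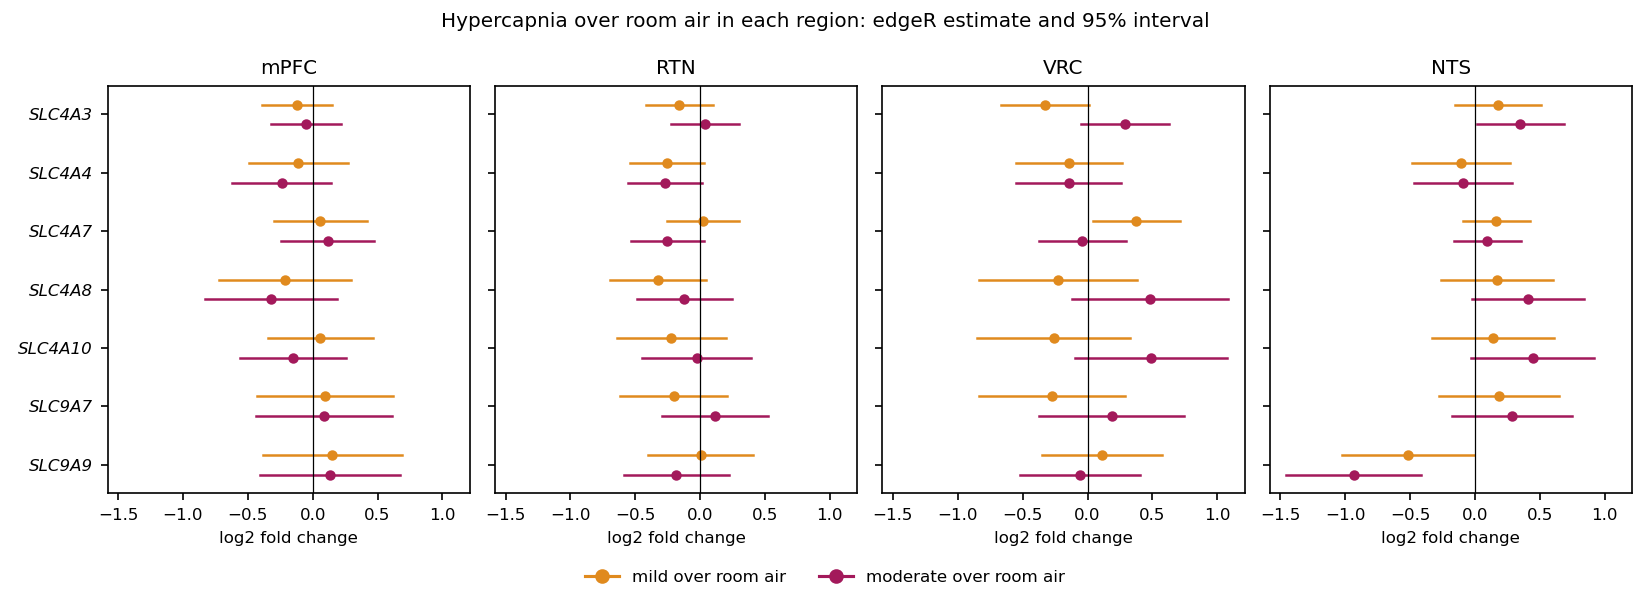
Log2 fold change of mild and of moderate hypercapnia over room air for each member in the 4 regions. Points are edgeR estimates and lines their 95% intervals, from 18 libraries per region. The intervals span 0 except those of SLC4A7 in VRC (mild), SLC4A3 in NTS (moderate) and SLC9A9 in NTS (both), and the SLC9A9 estimate for moderate hypercapnia, at -0.94, lies farthest from 0.

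SLC9A9 in NTS had the largest estimated difference from room air among the members. Its lowest, median and highest libraries had 6.02, 6.73 and 16.8 CPM in room air, 3.52, 6.18 and 7.06 CPM under mild and 3.60, 4.28 and 5.34 CPM under moderate hypercapnia. All 6 moderate libraries lay below all 6 room air libraries, and 0.435% of the genes tested in that contrast were separated in either direction. The log2 fold change was -0.94 ± 0.25 for moderate over room air (unadjusted p = 0.00128, edgeR adjusted p = 0.330), the 41st smallest p of 15418 genes. For mild over room air it was -0.51 ± 0.24 (unadjusted p = 0.0483, edgeR adjusted p = 0.848). At the unadjusted threshold 2 of 7 members were counted for moderate over room air, against 13.4% of all genes, and 1 of 7 for mild over room air, against 4.66%.

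Markers of myelin moved beside SLC9A9 in NTS. In moderate over room air 8 of the 9 tested genes of the oligodendrocyte and myelin list were lower at an unadjusted p under 0.05, with a median log2 of -0.88 where the median of all genes was -0.0045. Their summed level ranged from 3957 to 14874 CPM in the moderate and from 7772 to 34724 CPM in the room air libraries. The myelin count and median include room air replicate 1, which had the highest of these sums. Without room air replicate 1 the SLC9A9 fold change was -0.58 ± 0.16 for moderate (unadjusted p = 0.00188) and -0.17 ± 0.16 for mild hypercapnia (unadjusted p = 0.305). Adjusted for a myelin score, the SLC9A9 value for moderate over room air was -0.59 ± 0.26 (unadjusted p = 0.0369), and adjusted for a ribosomal protein score, which was added after seeing the data, it was -0.40 ± 0.24 (unadjusted p = 0.114). The cause of these shifts was not tested.

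**Figure D4:**
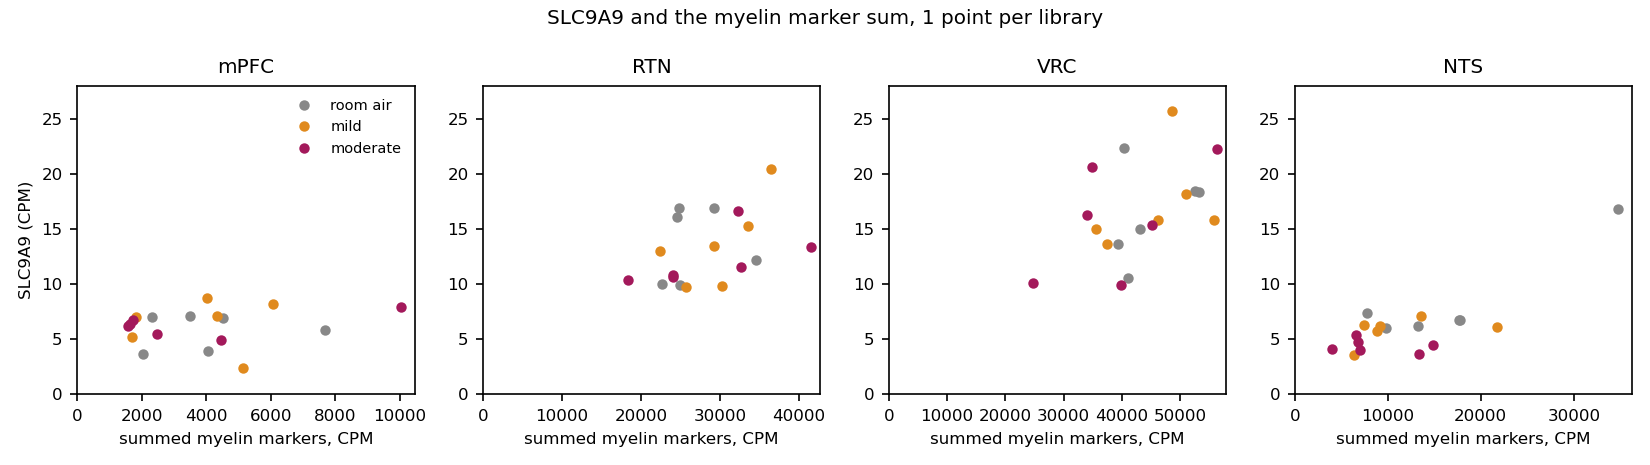
SLC9A9 (CPM, vertical axis) against the summed level of the oligodendrocyte and myelin list (CPM, horizontal axis, own scale per region), 1 point per library, coloured by condition. In NTS 1 room air library sits alone at a myelin sum of 34724 CPM and an SLC9A9 level of 16.8 CPM, and the 6 moderate libraries lie at or below 5.34 CPM.

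SLC4A3 was the other member counted for moderate over room air in NTS. Its lowest, median and highest libraries had 222, 271 and 281 CPM under moderate hypercapnia and 105, 206 and 284 CPM in room air, and all 6 moderate libraries lay above the room air median. The log2 fold change was 0.35 ± 0.16 (unadjusted p = 0.0398, edgeR adjusted p = 0.361), and 0.22 ± 0.12 without room air replicate 1 (unadjusted p = 0.0723). In the same contrast SLC4A10 had 0.44 ± 0.23 and SLC4A8 had 0.41 ± 0.21, with edgeR adjusted p of 0.391 and 0.392. Without room air replicate 1 the SLC4A10 value was 0.28 and the SLC4A8 value 0.27. After adjustment for the myelin score SLC4A3 had 0.10, SLC4A10 had 0.05 and SLC4A8 had 0.25, and after adjustment for the ribosomal protein score SLC4A3 had 0.04 while SLC4A10 and SLC4A8 turned negative, at -0.14 and -0.07. Of 8 neuron genes 7 had a positive log2 value in that contrast (median 0.34), with 0 at an unadjusted p under 0.05 by edgeR.

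In VRC the members differed most between the 2 levels of hypercapnia, a contrast that the series text does not list. At an unadjusted p under 0.05 there were 4 of 7 members for moderate over mild, where 15.5% of all genes were counted and 0% called. SLC4A3 had a lowest, median and highest of 92.9, 186 and 205 CPM in the moderate and 71.0, 113 and 135 CPM in the mild libraries, and all moderate libraries but replicate 6 lay above every mild library. Its log2 fold change was 0.62 ± 0.16 (unadjusted p = 0.00110, edgeR adjusted p = 0.134). The adjusted p of SLC4A3 was 0.0312 by DESeq2, and 0.0147 by edgeR without VRC moderate replicate 6, the lowest of its group, where the log2 value was 0.74. Over all genes DESeq2 called 253 in this contrast, and edgeR without that library called 252. After adjustment for the myelin score SLC4A3 had 0.42 (edgeR adjusted p = 0.240).

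SLC4A10 and SLC4A8 had higher medians under moderate than under mild hypercapnia in VRC. SLC4A10 had 12.3, 33.1 and 51.6 CPM as the lowest, median and highest of the moderate libraries and 13.6, 17.2 and 31.2 CPM of the mild libraries, with a log2 fold change of 0.75 ± 0.28 (unadjusted p = 0.0149, edgeR adjusted p = 0.219). SLC4A8 had 9.57, 15.9 and 28.03 CPM in the moderate and 6.21, 11.3 and 13.1 CPM in the mild libraries, with a log2 of 0.71 ± 0.29 (unadjusted p = 0.0244, edgeR adjusted p = 0.255). The groups overlapped for both genes, and the moderate libraries spread more widely. SLC4A7 had the opposite sign: 12.9, 19.3 and 22.1 CPM in the moderate and 16.2, 23.1 and 31.5 CPM in the mild libraries, a log2 of -0.42 ± 0.16 (unadjusted p = 0.0172, edgeR adjusted p = 0.229). Adjusted for the ribosomal protein score, the SLC4A7 value was -0.61 and its edgeR adjusted p 0.0470. That fit called 46 of all genes for moderate over mild.

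Markers of immune cells and myelin moved beside these members in VRC. For moderate over mild 15.5% of all genes had an unadjusted edgeR p under 0.05. For moderate over mild 7 of 10 microglia and macrophage genes were lower at an unadjusted p under 0.05 (median log2 -0.54), as were 4 of 7 leukocyte genes (median -1.12) and 3 of 9 myelin genes (median -0.28). The microglia and macrophage sum ranged from 291 to 527 CPM in the moderate and from 435 to 825 CPM in the mild libraries, and the leukocyte sum from 24.8 to 28.7 CPM in the moderate and from 21.9 to 129.8 CPM in the mild libraries. All 8 neuron genes had a positive log2 value (median 0.32), but only 1 of them an unadjusted p under 0.05, no more than genes in general. Of 10 astrocyte genes 1 was higher and 2 were lower at that threshold (median 0.27). Moderate replicate 6 had the lowest neuron sum of its group, 7691 CPM with the next at 11434 CPM. The part of the immune, neuron and astrocyte lists in the member values was not tested. Against room air, SLC4A7 in VRC had 16.2, 23.1 and 31.5 CPM in the mild and 16.1, 18.6 and 23.7 CPM in the room air libraries, a log2 of 0.38 ± 0.16 (unadjusted p = 0.0295, edgeR adjusted p = 0.759). It was the only member at an unadjusted p under 0.05 in that contrast, where 6.23% of all genes were. SLC4A3 had -0.33 ± 0.16 in the same contrast (unadjusted p = 0.0573), with all 6 mild libraries below the room air median. For mild over room air 3 of 10 microglia and macrophage genes and 5 of 7 leukocyte genes were higher at that threshold.

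SLC4A4 had a negative log2 estimate in all 8 contrasts with room air, none of them past a threshold. For mild over room air it was -0.11 ± 0.18 in mPFC, -0.26 ± 0.14 in RTN, -0.14 ± 0.19 in VRC and -0.10 ± 0.18 in NTS. For moderate over room air it was -0.24 ± 0.18 in mPFC, -0.27 ± 0.14 in RTN, -0.15 ± 0.19 in VRC and -0.09 ± 0.18 in NTS. Without NTS room air replicate 1 the NTS values of SLC4A4 were -0.18 for mild and -0.16 for moderate hypercapnia. Both levels share the room air libraries of their region, and by the animal numbers of the series text the regions share animals. The signs are therefore not separate observations. The smallest unadjusted p was 0.0589, in RTN under moderate hypercapnia (edgeR adjusted p = 0.689). There the lowest, median and highest libraries had 68.4, 82.2 and 97.4 CPM in room air, 40.8, 73.3 and 82.0 CPM under mild and 59.8, 67.7 and 76.1 CPM under moderate hypercapnia. All 6 mild and all 6 moderate libraries lay below the room air median, and the ranges overlapped.

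In VRC, moderate over room air gave positive estimates for SLC4A10 (0.49 ± 0.28), SLC4A8 (0.48 ± 0.29) and SLC4A3 (0.29 ± 0.16). Each had an edgeR adjusted p of 0.872. In RTN, a region known for sensing carbon dioxide, the largest absolute log2 among all 7 members against room air was that of SLC4A8 under mild hypercapnia, -0.32 ± 0.18, with means of 10.5 ± 2.83 CPM in the mild and 13.3 ± 1.47 CPM in the room air libraries. The median over the 7 members in RTN was -0.20 for mild and -0.12 for moderate over room air. SLC4A7 in RTN had -0.25 ± 0.13 for moderate over room air (unadjusted p = 0.0736), and its 6 moderate libraries, 10.9 to 15.8 CPM, lay below the room air median of 16.0 CPM. In mPFC SLC4A8 also had the largest absolute estimate, -0.32 ± 0.24 for moderate over room air, with a 95% interval of -0.83 to 0.19. SLC9A7 stayed within -0.27 and 0.28 in all 8 contrasts with room air, and its highest value, in NTS under moderate hypercapnia, was 0.15 without room air replicate 1. One mPFC library, mild replicate 5, had the highest SLC4A10, SLC4A8 and SLC9A7 of that group, at 345 CPM, 19.8 CPM and 20.9 CPM, and without it the log2 values for mild over room air were -0.46 for SLC4A8 (-0.21 with it), -0.17 for SLC9A7 (0.10 with it) and -0.12 for SLC4A10 (0.06 with it).

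Whether a response differed among the regions was tested over all 72 libraries with 3 degrees of freedom. No member was called for mild or for moderate hypercapnia over room air by edgeR (0 of 14), where 0% of 16372 genes were called in each. One test by edgeR, that of SLC9A9 under moderate hypercapnia, had an unadjusted p under 0.05 (0.0189, with an adjusted p of 1). The SLC9A9 estimates behind it were 0.13 in mPFC, -0.18 in RTN, -0.06 in VRC and -0.94 in NTS. The test among regions was not repeated without NTS room air replicate 1. Blocking on the replicate number, edgeR also called 0 of 14 and counted 3 at an unadjusted p under 0.05, all under moderate hypercapnia: SLC4A8 (0.0121), SLC9A9 (0.0322) and SLC4A10 (0.0381). Limma with a random block called 0 of 14 and counted 2, SLC4A8 under moderate (0.0123) and SLC4A3 under mild hypercapnia (0.0464), while SLC9A9 had 0.0994. A response of SLC9A9 that is particular to NTS is therefore not shown.

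Genes that work with these transporters were not called under hypercapnia either. Over 12 contrasts edgeR called none of the tests in the other SLC4 and SLC9 genes (0 of 108, with 2 at an unadjusted p under 0.05), SLC26 anion exchangers (0 of 72, with 4), carbonic anhydrases (0 of 144, with 8), transporter regulators (0 of 144, with 10), monocarboxylate transporters and their chaperones (0 of 48, with 1) and V-ATPase subunits (0 of 156, with 13). At that unadjusted threshold edgeR counted 7.02% of all gene tests over the 12 contrasts. CA2, the abundant cytosolic carbonic anhydrase of oligodendrocytes, had the smallest p of its list, with 150.3 ± 41.0 CPM in moderate and 231 ± 40.9 CPM in room air VRC libraries, a log2 of -0.62 ± 0.18 (edgeR adjusted p = 0.789). CA11, a carbonic anhydrase-related protein, had -0.43 ± 0.13 in NTS for moderate over room air (edgeR adjusted p = 0.330). SLC4A11 had 0.96 ± 0.35 in NTS for moderate over room air, at low levels of 3.45 ± 1.30 and 1.76 ± 0.81 CPM. In NTS the pump subunits ATP6V1A and ATP6V1H had 0.38 ± 0.14 and 0.32 ± 0.12, and the exchanger cofactor CHP1 had 0.33 ± 0.15, all for moderate over room air. The scaffold RACK1 had 0.23 ± 0.08 and the lactate transporter SLC16A3 -0.47 ± 0.22 in RTN, and EMB, a chaperone of lactate transporters, 0.82 ± 0.40 in NTS, all for mild over room air. For moderate over room air SLC26A4 had -0.85 ± 0.31 in mPFC, at low levels of 1.12 ± 0.38 and 2.05 ± 0.46 CPM, and SLC26A11 had 0.31 ± 0.13 in VRC. Each of the genes named here had an edgeR adjusted p above 0.05.

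By region some partner genes differed in room air, where 38.8% of all gene tests were called. Called were 46 of 72 carbonic anhydrase tests (63.9%), 15 of 24 for monocarboxylate transporters (62.5%) and 35 of 72 for regulators (48.6%). The V-ATPase subunits with 30 of 78 (38.5%), the SLC26 genes with 16 of 42 (38.1%) and the other SLC4 and SLC9 genes with 17 of 54 (31.5%) lay at or below that background. CA2 averaged 32.8 RPKM in mPFC, 68.1 RPKM in RTN, 106 RPKM in VRC and 53.5 RPKM in NTS, the region order of SLC9A9. CA3 ran from 275 RPKM in mPFC to 972 RPKM in NTS. SLC9A5 had 11.5 RPKM in mPFC against 5.68 to 7.31 RPKM in the brainstem regions. The lactate transporter SLC16A1 had 10.8 RPKM in mPFC and 40.4 RPKM in VRC, and SLC16A3 had 1.77 RPKM in mPFC and 8.14 RPKM in VRC. SLC9A3R1 had 104 RPKM in mPFC and 382 RPKM in VRC, whereas CHP1 stayed between 114 and 162 RPKM. SLC26A11 ran from 533 RPKM in mPFC to 1073 RPKM in NTS, and SLC26A6 from 1.78 RPKM in VRC to 3.65 RPKM in mPFC. ATP6V1E1 and ATP6V0C stayed between 1156 and 1416 RPKM and between 802 and 925 RPKM.

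Within the 12 groups the members fell into sets that varied together. Pearson's r was taken over 72 libraries on log2 CPM after subtracting each group's mean. It is a description, since libraries of different regions share animals by the series text, may share a preparation and differ in depth. SLC4A10 and SLC9A7 had r = 0.793, SLC4A8 and SLC4A10 r = 0.732, and SLC4A8 and SLC9A7 r = 0.670, and each of the 3 pairs was positive in all 4 regions. SLC9A9 had r = -0.457 with SLC4A10 and r = -0.366 with SLC4A3. SLC4A4 had r between -0.0987 and 0.225 with each of the other members.

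**Figure D5:**
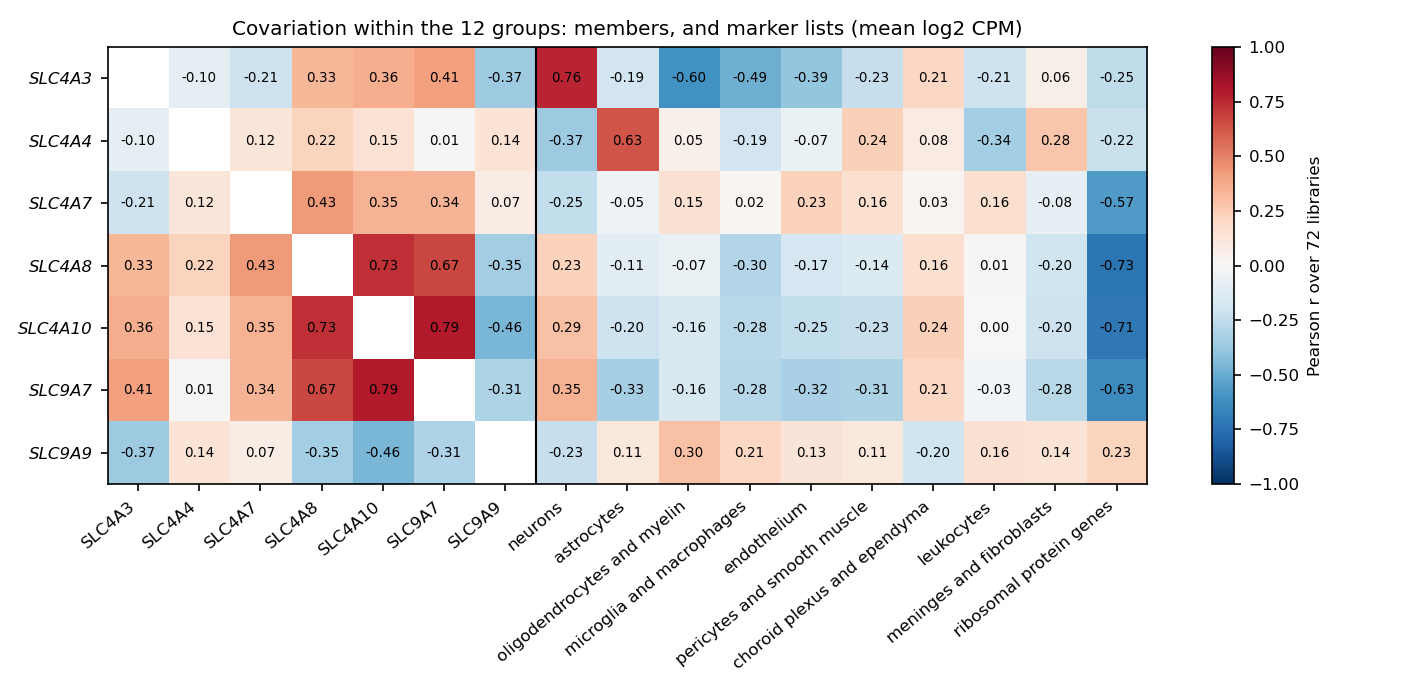
Pearson r over 72 libraries after subtracting the means of the 12 groups, between members (left of the line) and between members and the mean log2 CPM of marker lists (right of the line). SLC4A3 goes with neuron markers, SLC4A4 with astrocyte markers, and SLC4A8, SLC4A10 and SLC9A7 with each other and against ribosomal protein genes. SLC4A7 also goes against ribosomal protein genes.

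Marker lists and single genes that varied with each member differed. SLC4A3 had r = 0.762 with the neuron list and r = -0.603 with the myelin list, and its nearest genes were the synapsin gene SYN1 (r = 0.887), TMEM130 (0.870) and MAST1 (0.864). SLC4A4 had r = 0.630 with the astrocyte list, and its nearest genes were PPP4R3B (0.810), the connexin gene GJA1 (0.768), which is on that list, and TMEM47 (0.767). SLC4A10 lay nearest to the ubiquitin ligase gene PJA2 (0.913), with WDR47 at 0.887. SLC9A7 lay nearest to the sodium leak channel gene NALCN (0.812), PGM2L1 (0.779) and PJA2 (0.771), and SLC4A8 to VPS8 (0.835), ARFGEF2 (0.827) and HEATR5B (0.824). SLC4A7 lay nearest to NRDC (0.689), MAP4K5 (0.655) and PPP4R3A (0.647), and SLC9A9 to PTP4A2 (0.784), PMP22 (0.644) and TMEM106C (0.600). PMP22 is not on the myelin list, with which SLC9A9 had r = 0.295 (0.159 in mPFC to 0.448 in NTS). The ribosomal protein list, added after seeing the data, had r = -0.730 with SLC4A8, -0.711 with SLC4A10, -0.634 with SLC9A7 and -0.567 with SLC4A7. These members were thus low in libraries where ribosomal protein transcripts were high. The likeness was ranked over 10113 genes with at least 5 CPM on average.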

How the data were processed

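Counts per gene were deposited by the authors as raw whole numbers for 72 libraries, beside deposited RPKM values and a Length column in bases (unit other). The submitters' processing notes name FastQC, Trimmomatic, STAR and featureCounts, and edgeR as well. No version, build or strand setting is stated, so reads of an antisense or overlapping gene cannot be told apart, and only symbols are given. The RPKM library size was 1.005 to 1.007 times the count sum.

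Each region (18 libraries) was fitted with edgeR 4.0.16 in R 4.3.3: low counts removed by filterByExpr (minimum 10), TMM scaling, the quasi-likelihood F-test and Benjamini-Hochberg adjustment at 0.05 over all genes tested. The 24 room air libraries and all 72 libraries were fitted likewise. CPM values are TMM-scaled; log2 CPM used a prior count of 2. DESeq2 1.42.0 and limma 3.58.1 were alternatives. The procedure was tested on simulated data. Libraries of a group all differed beyond sampling noise (chi-square per degree of freedom 14.7 to 207). The 6 animals per condition in the series text imply 18 animals for the 72 libraries, so the regions of a condition share animals. Nothing says that a replicate number marks an animal. The fits of the 24 room air libraries and of all 72 libraries treated libraries as independent, except where a replicate block is named. The p-values measure the spread between libraries.

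Named genes were the members, the 3 genes most like each by r among those with at least 5 CPM, the 2 genes of smallest p against room air in each of 6 pathway lists, and the 2 of highest RPKM in each. Members and lists were chosen with earlier results of these data known. Some genes that this rule names are not reported here.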

Additional observations from a re-analysis of the deposited data

Results flagged for a closer look

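In 8 of 84 groups 1 library lay farther from the other 5 than Dixon's 95% limit, where chance gives about 1 in 20. In NTS under room air, replicate 1 was lowest for SLC4A10, at 27.1 CPM with the next library at 79.3 CPM, and highest for SLC9A9, at 16.8 CPM with the next at 7.33 CPM. In mPFC under mild hypercapnia, replicate 5 was highest for SLC4A8, at 19.8 CPM with the next at 11.05 CPM, and for SLC9A7, at 20.9 CPM with the next at 12.4 CPM. In NTS under mild hypercapnia, replicate 1 was highest for SLC4A8, at 19.1 CPM with the next at 16.1 CPM, and lowest for SLC9A9, at 3.52 CPM with the next at 5.75 CPM. In NTS under moderate hypercapnia SLC9A7 was lowest in replicate 2, at 8.06 CPM with the next at 13.9 CPM. In VRC under mild hypercapnia SLC9A9 was highest in replicate 1, at 25.7 CPM with the next at 18.2 CPM.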

How the results depend on the processing

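Of 84 condition values, each under 26 alternatives, 2 were called under any, and 42 changed sign under at least 1, the largest of those having a log2 of 0.44. In VRC for moderate over mild 1 member was called in place of 0 by DESeq2 and with the ribosomal protein score as a covariate, and 0 to 1 with 1 library left out. Of the 21 region calls 12 kept their direction and call under all 31 alternatives. For RTN over VRC, 1 member was called in place of 2 with RLE factors, with no filter on low counts and in the fit of all 72 libraries, 0 in the 24 moderate libraries, and 1 to 2 with 1 library left out; the cause was not tested. For RTN over NTS 5 were called in place of 3 in the 24 mild libraries, and 1 to 3 with 1 library left out. For mPFC over NTS 6 were called in place of 3 in the 24 moderate libraries. In the moderate libraries 3 values that were not called in room air had the opposite sign. They were SLC4A8 in mPFC over VRC (-0.77, room air 0.09), SLC4A3 in mPFC over NTS (-0.42, room air 0.01) and SLC9A9 in mPFC over NTS (0.50, room air -0.53). By RPKM in place of CPM, 5 of 7 members kept their region order, and SLC4A3 and SLC4A8 did not. The replicate number as a block was not taken to pair conditions, since deviations of same-numbered libraries of a region correlated at over 0.1 in 22 of 72 pairs only (median r 0.0206). Across regions of a condition 92 of 108 pairs were over 0.1 (median r 0.233), a hint from the data that numbers link libraries, but not all pairs were, and no label says so. The replicate block called 0 members in each condition contrast and, for mPFC over VRC, 5 in place of 4 (SLC4A4 added); other counts of members called were as without it. Over all genes edgeR called 0 in 11 contrasts and 1 in NTS for moderate over room air, DESeq2 0 to 253, limma 0 to 35 and the ribosomal protein covariate 0 to 46, each with most in VRC for moderate over mild, where edgeR without VRC moderate replicate 6 called 252. The counts of low transcripts such as SLC9A9, 54 to 448 per library, limit the precision of their folds.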
